A study of Rattus norvegicus with 12 samples.

Results

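The genes described here encode chemokines of the CC family that draw monocytes and macrophages into tissue, with the receptors that read them: the ligands Ccl2, Ccl7, Ccl12, Ccl9, Ccl6, Ccl3 and Ccl4 and the receptors Ccr1 and Ccr2. They are taken by name, with no threshold on their values, although earlier results of these data were known when the list was drawn up. Of the 9 genes, 8 had a row in the deposited table of 22601 genes, and all 8 passed the filter of at least 1 FPKM in at least 3 libraries that left 12633 genes for testing. Ccr2 is not analysed here.

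RNA was sequenced from tissue that had formed in a drilled defect of the distal femur of Sprague Dawley rats, 8 weeks old at surgery by the study's methods, 2 weeks after the defect was made. In 3 groups a 3D printed scaffold filled the defect: gelatin methacryloyl (GelMA) hydrogel, polycaprolactone (PCL), a slowly degrading polyester, or β-tricalcium phosphate (β-TCP), a calcium phosphate ceramic. In the control group the same defect was left without a scaffold. Each group had 3 libraries. The study's methods speak of independent samples in every group and do not tie each of these libraries to a rat of its own, so the p-values speak only of the spread between the sequenced samples. The question of the comparison was how the tissue that forms in each scaffold differs from that of the empty defect and from that of the other scaffolds.

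Chemokines are small secreted proteins that bind receptors coupled to G proteins on leukocytes and steer the cells up a gradient. Ccl2, Ccl7 and, in mouse, Ccl12 act on Ccr2 and bring monocytes out of the marrow and the blood into inflamed tissue, while Ccl3, Ccl4 and, in mouse, Ccl9 and Ccl6 are macrophage inflammatory protein type ligands, most of which act on Ccr1. In bone, Ccl9 and Ccr1 are also made by osteoclasts and their precursors in mouse, and the fusion of monocyte lineage cells gives both the osteoclasts that resorb bone and the giant cells that form on implants.

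In the RefSeq gene order of the rat assembly GRCr8, the 7 ligand genes lie in 2 groups on chromosome 10. Ccl2, Ccl7, Ccl11, Ccl12 and Ccl1 follow one another in the first, and Ccl5, Ccl9, Ccl6, Ccl3 and Ccl4 in the second. Ccr1, Ccr3, Ccr1l1 and Ccr2 are neighbours on chromosome 8. The files were made on the build Rnor_6.0, so coordinates below belong to GRCr8 and to no value of the files. Of the 8 measured members, 5 had a RefSeq promoter of 300 bases (250 before and 50 from the transcription start). Ccl7, Ccl12, Ccl9 and Ccl6 are printed because they come as 2 pairs, a pair from each group of ligand genes, and the levels went together in one pair and apart in the other. Capitals mark matches to an AP-1 motif (TGANTCA), to the NF-κB consensus or to the TATA box letters TATAAA, on either strand, and overlapping TATA matches run together.
Ccl7, chr10:67513845-67514144, plus strand: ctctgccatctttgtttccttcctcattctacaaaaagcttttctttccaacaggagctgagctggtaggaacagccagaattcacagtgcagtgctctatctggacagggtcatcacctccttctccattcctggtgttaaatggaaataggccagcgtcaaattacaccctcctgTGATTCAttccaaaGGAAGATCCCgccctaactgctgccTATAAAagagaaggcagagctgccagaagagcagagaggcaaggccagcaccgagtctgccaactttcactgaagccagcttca
Ccl12, chr10:67567626-67567925, plus strand: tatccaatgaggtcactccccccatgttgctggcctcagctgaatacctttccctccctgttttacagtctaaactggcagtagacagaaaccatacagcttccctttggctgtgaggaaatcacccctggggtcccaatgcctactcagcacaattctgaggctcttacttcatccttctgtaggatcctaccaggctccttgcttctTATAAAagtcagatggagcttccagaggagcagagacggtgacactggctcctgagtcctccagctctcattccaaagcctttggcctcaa
Ccl9, chr10:68868828-68869127, minus strand: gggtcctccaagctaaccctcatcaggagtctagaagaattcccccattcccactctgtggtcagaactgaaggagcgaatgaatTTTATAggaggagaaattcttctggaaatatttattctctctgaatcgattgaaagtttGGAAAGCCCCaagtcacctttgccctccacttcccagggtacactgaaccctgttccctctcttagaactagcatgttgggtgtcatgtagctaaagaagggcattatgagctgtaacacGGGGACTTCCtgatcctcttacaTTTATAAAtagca
Ccl6, chr10:68883317-68883616, minus strand: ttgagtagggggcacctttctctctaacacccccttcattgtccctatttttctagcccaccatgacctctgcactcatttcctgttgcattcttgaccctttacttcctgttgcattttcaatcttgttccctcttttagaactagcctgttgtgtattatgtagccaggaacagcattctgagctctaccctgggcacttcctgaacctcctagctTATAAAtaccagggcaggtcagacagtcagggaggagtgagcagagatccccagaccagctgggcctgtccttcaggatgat

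The Ccl7 window held the AP-1 letters from position -73 and an NF-κB match from position -59, counted from the transcription start, with TATAAA from position -34. Ccl12 held TATAAA from position -41 and neither of the other motifs. Ccl9 held NF-κB matches from positions -106 and 15. Its TATAAA matches, on either strand, began at positions -165, 38 and 40, so those at 38 and 40 lie after the annotated start. Ccl6 held no NF-κB match and had TATAAA from position -32. Among the 33469 RefSeq promoters of this length, 7.33% held the AP-1 letters, 7.51% an NF-κB match and 14.2% TATAAA. The best local alignment of the Ccl9 and Ccl6 windows had 102 identical bases of 137 aligned (74.5%) and joined position -89 of Ccl9 with position -158 of Ccl6, so the annotated starts of this pair do not lie at the same aligned base. The NF-κB match GGGGACTTCC of Ccl9 was aligned with GGGCACTTCC of Ccl6, a G4C difference counted from 1 at the first base of the match, Ccl9 first. Ccl7 and Ccl12 had 55 identical bases of 75 aligned (73.3%). A match is a run of letters and not a shown binding site.

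Values are FPKM, fragments scaled to transcript length and to library size, as the authors deposited them. Depth was 15036447 to 17358370 fragments per library. Limma compared the groups on the log2(FPKM + 1) scale in a single fit of the 12 libraries. A gene was called where its p, adjusted by Benjamini and Hochberg over all tested genes, was under 0.05. Beside this the 2-fold rule of the study's methods was counted, which asks for a p under 0.05 before adjustment and a change beyond 2-fold either way. Some libraries stood apart from their labels' groups. Between β-TCP replicates 2 and 3 the mean chi-square over genes was 2.18, where the 11 remaining within-group pairs had 31.91 to 305.32. They entered as the 2 libraries that the labels give, and results are also given with the 2 averaged. Whether they come from separate samples cannot be told from these values. Control replicate 3 had a summed 60 FPKM of 12 neutrophil genes against 2490 and 3220 in control replicates 1 and 2, 1250 FPKM of 9 erythroid genes against 10900 and 20300, and 14200 FPKM of 10 cartilage genes against 2380 and 2420. All 10 bone markers were present, with sums of 6310 to 26100 FPKM, which fits the labelled tissue.

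**Figure D1:**
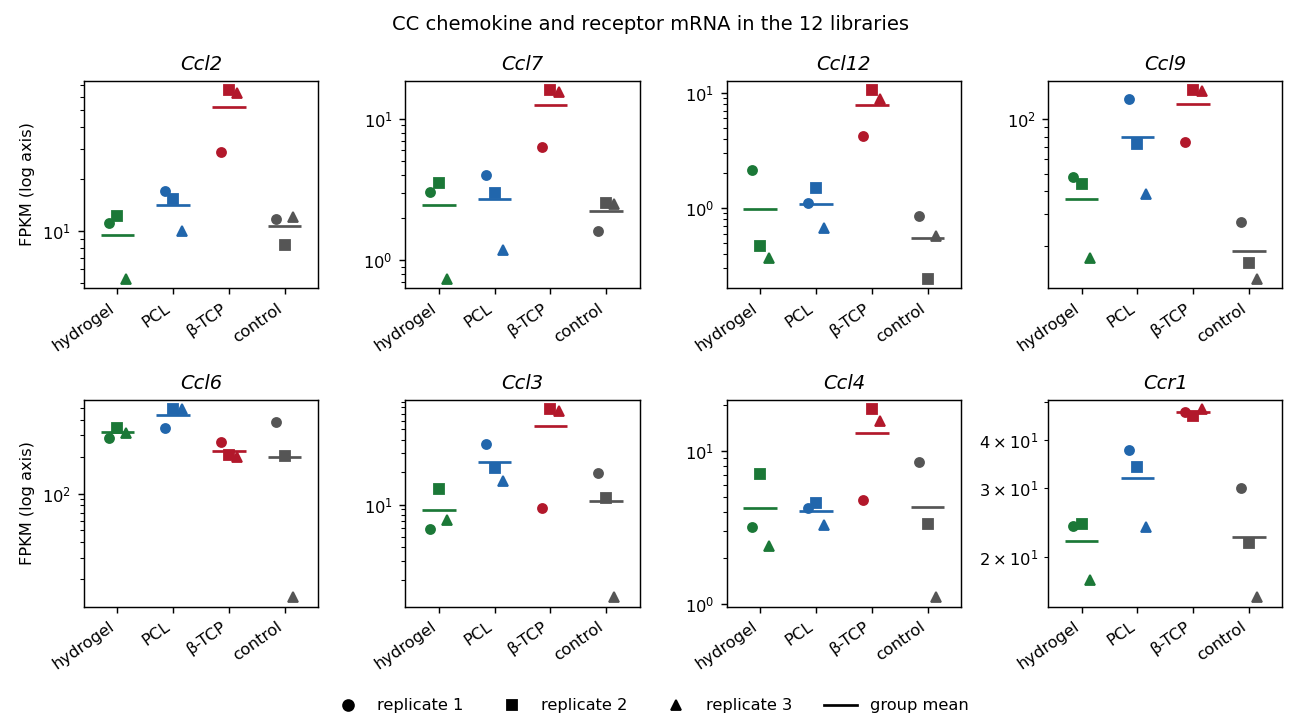
FPKM of the 8 measured genes on log axes in each of the 12 libraries, with groups from left to right, a marker shape for each replicate number and a line at the group mean. For Ccl2, Ccl7, Ccl12, Ccl9 and Ccr1 all 3 β-TCP libraries lie above all 3 control libraries, and control replicate 3 lies far below the other control libraries for Ccl6 and Ccl3.

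In β-TCP against control, the monocyte chemoattractants Ccl2, Ccl7 and Ccl12, the Ccr1 ligand Ccl9 and the receptor Ccr1 rose, by 2.08 to 14.2 times in mean FPKM. Of the 8 members, 5 were higher at an adjusted p under 0.05, where 4.22% of all tested genes were, and 7 were higher by the 2-fold rule, where 2.49% of all tested genes were. The median log2 fold change of the members was 2.05, and that of all tested genes was 0.03. Libraries of the 2 groups did not overlap for 5 members, a pattern that 17.9% of tested genes showed. All 5 adjusted calls were lost, with log2 fold changes that stayed between 1.06 and 2.46, when β-TCP replicate 2 or replicate 3 was left out or the pair was averaged. Without control replicate 2 only Ccl12 kept its call, without control replicate 1 Ccl7 lost its call (adjusted p = 0.0742), and without β-TCP replicate 1 Ccr1 did (adjusted p = 0.0607). The count by the 2-fold rule fell to 4 without control replicate 3.

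Ccl2, the main ligand of Ccr2, had 11.1, 12.2 and 5.29 FPKM in hydrogel libraries and 17.0, 15.4 and 10 FPKM in PCL libraries. It had 28.7, 65.2 and 62.8 FPKM in β-TCP libraries, against 11.7, 8.28 and 12.1 FPKM in control libraries. The lowest β-TCP library was thus above the highest control library, and β-TCP replicate 1 was well below the other two. The means were 52.2 ± 20.4 FPKM in the β-TCP group and 10.7 ± 2.1 FPKM in the control group (SD, n = 3 each), a log2 fold change of 2.12 (standard error 0.36, limma adjusted p = 0.016). The hydrogel and PCL ranges overlapped that of the control group, so that among the means of 9.54 FPKM in hydrogel, 14.2 FPKM in PCL and 10.7 FPKM in control no neighbours differed beyond their spread.

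Ccl7, which shares the receptor of its neighbour and binds other CC receptors too, was lower in level and had the same shape across groups. Hydrogel libraries had 3.06, 3.54 and 0.742 FPKM, and PCL libraries 4.0, 3.0 and 1.19 FPKM. It had 6.35, 15.9 and 15.4 FPKM in β-TCP libraries, against 1.62, 2.53 and 2.51 FPKM in control libraries. The β-TCP and control libraries did not overlap. The log2 fold change was 1.99 (standard error 0.44, limma adjusted p = 0.0346). The call was lost with limma-voom on whole fragments recovered from the FPKM (log2 fold change 2.38, adjusted p = 0.0614) and in the fit with a replicate block (adjusted p = 0.0551). Replicate 3 was the lowest library in the hydrogel and PCL groups, and the control range lay inside both of theirs.

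Ccl12 was the member nearest to the limit of detection outside the β-TCP group. Hydrogel libraries had 2.12, 0.470 and 0.369 FPKM and PCL libraries 1.11, 1.49 and 0.669 FPKM. It had 4.25, 10.5 and 8.85 FPKM in β-TCP libraries, against 0.849, 0.244 and 0.568 FPKM in control libraries. These did not overlap, while the hydrogel and PCL libraries overlapped control. The β-TCP values rested on 39, 92 and 79 fragments and the control values on 7, 2 and 5, and for the 2 fragments the exact Poisson 95% interval was 0.0295 to 0.881 FPKM, which covers counting error only. The log2 fold change was 2.45 (standard error 0.36, limma adjusted p = 0.0119). The pseudocount of 1 understates the change of so low a gene, and limma-voom gave a log2 fold change of 3.72 (adjusted p = 0.0254, standard error 0.72). Between Ccl7 and Ccl12 lies Ccl11, which encodes the eosinophil attractant eotaxin and was below the filter, with a mean of 0.0607 FPKM in the β-TCP group and 0.0223 FPKM in the control group.

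Ccl9 differed from control in the β-TCP group and, less firmly, in the PCL group. It had 47.9, 43.9 and 17.2 FPKM in hydrogel libraries, 129, 72.8 and 38.9 FPKM in PCL libraries and 74.5, 144 and 143 FPKM in β-TCP libraries, against 27.2, 16.1 and 13.2 FPKM in control libraries. All 6 PCL and β-TCP libraries were above the highest control library, and the PCL libraries spread over the range of the β-TCP ones and below it. The log2 fold change in β-TCP against control was 2.61 (standard error 0.50, limma adjusted p = 0.0212). In PCL against control it was 1.93 (standard error 0.50, unadjusted p = 0.00277, limma adjusted p = 0.127), which passed the 2-fold rule and not the adjusted threshold. Hydrogel libraries overlapped the control libraries in replicate 3 alone. The means ran from 121 ± 39.9 FPKM in β-TCP over 80.3 ± 45.6 FPKM in PCL and 36.3 ± 16.7 FPKM in hydrogel to 18.9 ± 7.40 FPKM in control (SD, n = 3 each), and each neighbouring pair in that order overlapped.

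Ccl6, the most abundant of the 7 ligands per length in every group mean, did not follow its neighbour. It had 285, 345 and 313 FPKM in hydrogel libraries, 345, 484 and 489 FPKM in PCL libraries and 263, 205 and 199 FPKM in β-TCP libraries, against 384, 201 and 14.3 FPKM in control libraries. Control replicate 3 was the only library of the 12 below 199 FPKM. In PCL against control the log2 fold change was 2.04 (standard error 0.89, unadjusted p = 0.0446, limma adjusted p = 0.263), and without control replicate 3 it was 0.64. In β-TCP against control it was 1.06 (standard error 0.89, limma adjusted p = 0.633). All β-TCP libraries were below all hydrogel libraries, although β-TCP against hydrogel had a log2 fold change of -0.50 (standard error 0.89, limma adjusted p = 0.694).

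Ccl3 and Ccl4, the macrophage inflammatory proteins 1α and 1β, varied widely between libraries of a group. Ccl3 had 36.3, 21.9 and 16.4 FPKM in PCL libraries and 5.91, 13.8 and 7.14 FPKM in hydrogel libraries, which did not overlap each other (PCL against hydrogel, log2 fold change 1.39, standard error 0.89, limma adjusted p = 0.655). It had 9.21, 77.2 and 74.2 FPKM in β-TCP libraries, against 19.7, 11.4 and 1.38 FPKM in control libraries. β-TCP replicate 1 lay below 2 of the control libraries, so the groups overlapped. The log2 fold change was 2.21 (standard error 0.89, unadjusted p = 0.0309, limma adjusted p = 0.209), and 1.29 without control replicate 3.

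Ccl4 had 3.20, 7.07 and 2.41 FPKM in hydrogel libraries and 4.26, 4.55 and 3.28 FPKM in PCL libraries. It had 4.80, 18.8 and 15.7 FPKM in β-TCP libraries, against 8.49, 3.33 and 1.11 FPKM in control libraries. As for Ccl3, β-TCP replicates 2 and 3 were high and replicate 1 was within the control range. The log2 fold change was 1.49 (standard error 0.58, unadjusted p = 0.0263, limma adjusted p = 0.191), and 0.95 without control replicate 3. Hydrogel and PCL libraries lay inside the control range. The ratio of Ccl3 to Ccl4 FPKM was 8.53, 4.82 and 5.0 in PCL libraries and 1.92, 4.12 and 4.74 in β-TCP libraries, against 2.32, 3.41 and 1.24 in control libraries, so that the PCL libraries had the 3 highest ratios of the 12.

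Ccr1, the receptor of the macrophage inflammatory protein type ligands, had the tightest β-TCP values of all members. Hydrogel libraries had 24.0, 24.3 and 17.5 FPKM and PCL libraries 37.5, 34.1 and 23.9 FPKM. It had 47.0, 45.9 and 47.9 FPKM in β-TCP libraries, against 30.1, 21.7 and 15.8 FPKM in control libraries. Here β-TCP replicate 1 stood with the other two, and all β-TCP libraries lay above all control libraries. The log2 fold change was 1.07 (standard error 0.23, limma adjusted p = 0.0307). PCL libraries overlapped control (log2 fold change 0.50, standard error 0.23, limma adjusted p = 0.278), and so did hydrogel libraries.

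**Figure D2:**
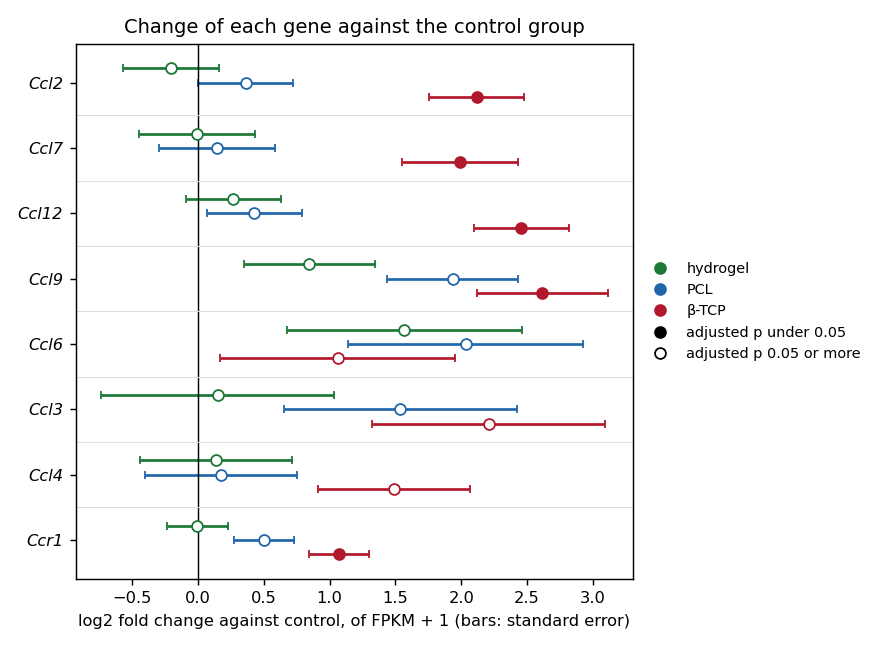
Log2 fold change of FPKM + 1 against the control group for each gene, by scaffold, with bars for the standard error of limma and filled points for an adjusted p under 0.05. The filled points are those of β-TCP for Ccl2, Ccl7, Ccl12, Ccl9 and Ccr1, and the hydrogel points of 6 genes lie between -0.21 and 0.27.

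In PCL against control, 2 members, Ccl9 and Ccl6, were higher by the 2-fold rule, where 2.37% of tested genes were. At an adjusted p under 0.05 limma called 0 members, where 0.277% of tested genes were called in either direction. At an unadjusted p under 0.05 there were 2, and limma-voom also called 0 at the adjusted threshold. Ccl9 was the 1 member whose PCL and control libraries did not overlap, a pattern that 10.3% of tested genes showed. The median log2 fold change of the members was 0.46, and that of all tested genes 0.04. The rule called 1 member without control replicate 3, Ccl9, and likewise 1 without any one of the PCL libraries.

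In hydrogel against control, limma called 0 members, where 2.29% of tested genes passed the 2-fold rule and 0.00792% the adjusted threshold in either direction. There were 0 at an unadjusted p under 0.05 as well, and 0 by limma-voom. The median log2 fold change of the members, 0.14, was that of all tested genes, 0.14, a shift of the whole comparison that fell to 0.03 with median-of-ratios scaling. The largest values were those of Ccl6 (1.57, standard error 0.89) and Ccl9 (0.85, standard error 0.50).

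The β-TCP group also stood above the hydrogel group. Of the members, 4 were higher at an adjusted p under 0.05 (5.17% of tested genes), 7 by the 2-fold rule (3.36% of tested genes) and 5 without overlap (23.0% of tested genes). Ccl2 had a log2 fold change of 2.32 (standard error 0.36, limma adjusted p = 0.0113) and Ccl12 of 2.19 (standard error 0.36, limma adjusted p = 0.0122). Ccl7 had 1.99 (standard error 0.44, limma adjusted p = 0.0302, limma-voom adjusted p = 0.0509) and Ccr1 1.08 (standard error 0.23, limma adjusted p = 0.0268). Ccl9 was at 1.77 (limma adjusted p = 0.0606). These comparisons share the β-TCP libraries with the ones against control, and all 4 calls were likewise lost without β-TCP replicate 2 or 3, and that of Ccr1 also without β-TCP replicate 1 (adjusted p = 0.0528). Without hydrogel replicate 3, the hydrogel library with the lowest Ccl2, Ccl7, Ccl12 and Ccl9, only the call of Ccl2 was kept and 4 members passed the 2-fold rule, and without hydrogel replicate 1 those of Ccl2 and Ccl12.

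PCL libraries lay below β-TCP libraries for the ligands that act on Ccr2. By the 2-fold rule 4 members, Ccl2, Ccl7, Ccl12 and Ccl4, were lower in PCL (1.14% of tested genes), 5 were lower without overlap (23.2% of tested genes), and at an adjusted p under 0.05 there was 1, Ccl12 (0.57% of tested genes). Ccl12 had a log2 fold change of -2.03 in PCL against β-TCP (standard error 0.36, limma adjusted p = 0.044), Ccl2 of -1.75 (limma adjusted p = 0.0662) and Ccl7 of -1.84 (limma adjusted p = 0.0872). The call of Ccl12 was lost without either of β-TCP replicates 2 and 3 and without any one of the PCL libraries. Ccl9 at -0.68 (standard error 0.50, limma adjusted p = 0.42) and Ccl3 at -0.67 (standard error 0.89, limma adjusted p = 0.66) did not pass. In PCL against hydrogel, limma called 0 members by the 2-fold rule (0.768% of tested genes), 0 at an adjusted p under 0.05 (0.103% of tested genes) and 0 at an unadjusted p under 0.05, and limma-voom called 0. Ccl9, at 1.09 (unadjusted p = 0.0526), and Ccr1, at 0.51 (unadjusted p = 0.0516), were the closest.

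The ligands were also read as shares of their sum. Ccl6 held 79.5% to 90.4% of the summed FPKM of the 7 ligands in hydrogel libraries, 64.2% to 87.4% in PCL libraries and 67.3%, 38.2% and 38.4% in β-TCP libraries, against 84.7%, 82.8% and 31.6% in control libraries. The low share of control replicate 3 came with a ligand sum of 45.2 FPKM, where the other 11 libraries had 243 to 603 FPKM. Ccl2, Ccl7 and Ccl12 together came to 16.3, 16.2 and 6.40 FPKM in hydrogel libraries and 22.1, 19.9 and 11.9 FPKM in PCL libraries. They came to 39.3, 91.6 and 87.0 FPKM in β-TCP libraries, against 14.2, 11.1 and 15.2 FPKM in control libraries. No library outside the β-TCP group reached its lowest sum. Within that sum the ratio of Ccl2 to Ccl7 was 4.52, 4.11 and 4.09 in β-TCP libraries and 3.27 to 8.41 in the others.

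**Figure D3:**
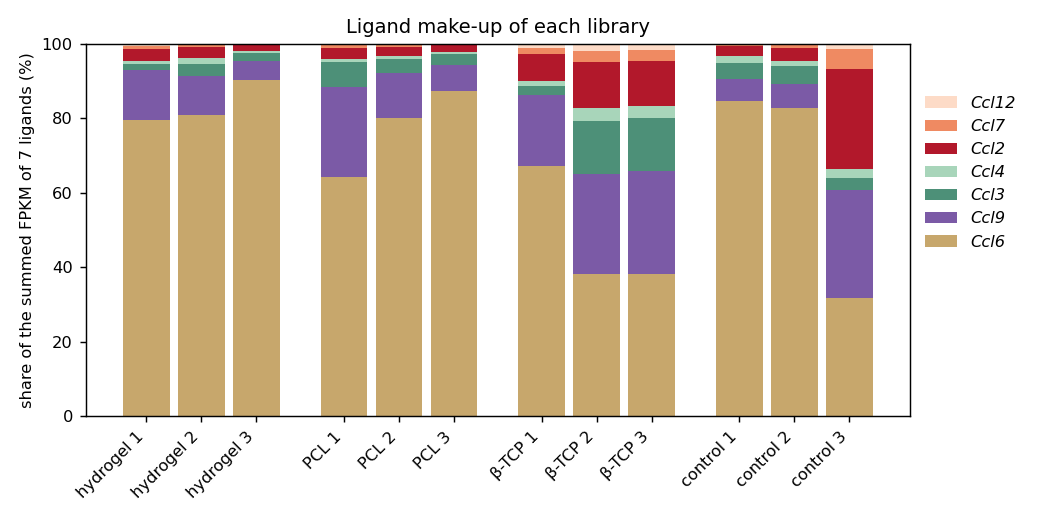
Share in percent of each ligand in the summed FPKM of the 7 ligands, as stacked bars, with a bar for each library. Ccl6 takes over 60% of the sum in all libraries except β-TCP replicates 2 and 3, at 38.2% and 38.4%, and control replicate 3, at 31.6%.

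Across the 12 libraries the log2(FPKM + 1) values of Ccl2 and Ccl7 had a Pearson r of 0.964 (Spearman rho 0.888), those of Ccl2 and Ccl12 0.945 (rho 0.804), those of Ccl9 and Ccr1 0.903 (rho 0.909), and those of Ccl3 and Ccl4 0.877 (rho 0.79). Ccl6 had r of -0.06 with Ccl2 (rho -0.231) and of 0.381 with its neighbour Ccl9 (rho 0.028). These are descriptions over libraries that share group and cell make-up. Of the genes outside the members, those most like Ccl2 were Dnase2, a lysosomal nuclease (r = 0.989), Cxcl16, a chemokine and scavenger receptor of macrophages (r = 0.984), and Plk3, a kinase (r = 0.983). Cxcl16 was also the most like Ccl7 (r = 0.962), followed by Adap2 (r = 0.962) and Rbpj, the nuclear effector of Notch (r = 0.961). Ccl12 was closest to Vsig4, a complement receptor of tissue macrophages (r = 0.968), P2ry12 (r = 0.958) and LOC498368 (r = 0.941). Vsig4 had a mean of 6.90 FPKM in the β-TCP group and 0.0466 FPKM in the control group. Ccl9 was closest to Slamf8 (r = 0.971), Tmem176b (r = 0.97) and Matk (r = 0.968), and Ccr1 to Sirpa, an inhibitory receptor of myeloid cells (r = 0.98), Hoga1 (r = 0.979) and Dapk1 (r = 0.979). Among the genes closest to Ccl6 were Oas1k (r = 0.985) and Evi2b (r = 0.982). Ccl3 was closest to Hsd11b1 (r = 0.958), Hgf (r = 0.956) and Cox19 (r = 0.955), and Ccl4 to Cd80, a costimulatory ligand (r = 0.972), Cd8a (r = 0.959) and Ifngr1 (r = 0.959).

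Markers of several cell types moved with the groups. Most of those of macrophages and osteoclasts went in the direction of the members, as did most T and NK cell markers in β-TCP against control. Of 7 tested T and NK cell markers, 2 rose there by the 2-fold rule, Cd4 and Cd8a, where 2.49% of all tested genes did. Nkg7 was at a log2 fold change of -0.23. In hydrogel against control 3 rose by this rule, Cd3d, Cd3g and Nkg7, where 0.807% of all tested genes did. Of 15 tested macrophage markers, 8 rose in β-TCP against control at an adjusted p under 0.05, where 4.22% of all tested genes did. By the 2-fold rule 11 rose, where 2.49% of all tested genes did, and the median log2 fold change was 1.27. Cd163 went the other way, with means of 6.92 FPKM in β-TCP, 13.0 FPKM in control and 23.9 FPKM in hydrogel. In β-TCP against hydrogel 4 rose by the 2-fold rule and 1, Cd163, was lower (log2 fold change -1.66). The summed level of the 16 macrophage genes was 3810 to 5720 FPKM in hydrogel, 4940 to 5470 FPKM in PCL and 4540, 9770 and 9830 FPKM in β-TCP libraries, against 4330, 3210 and 2100 FPKM in control libraries. Lyz2 alone made up most of this sum, with means of 3510 FPKM in hydrogel, 3980 FPKM in PCL, 6030 FPKM in β-TCP and 2320 FPKM in control. Levels per macrophage sum are thus mainly levels per Lyz2. β-TCP replicate 1 was close to control replicate 1 in the macrophage sum and had 28.7 FPKM of Ccl2 against 11.7 FPKM. The 2 libraries differed in the sum of 10 osteoclast genes, at 10000 and 4890 FPKM. Per 1000 FPKM of the macrophage sum, Ccl2 was at 2.92, 2.13 and 1.28 in hydrogel libraries, 3.42, 2.82 and 2.03 in PCL libraries and 6.32, 6.68 and 6.39 in β-TCP libraries, against 2.70, 2.57 and 5.76 in control libraries. Control replicate 3 was thus nearer to the β-TCP libraries than to the other control libraries. Ccl9 was at 26.0, 13.3 and 7.86 in PCL libraries and 16.4, 14.7 and 14.6 in β-TCP libraries, against 6.29, 5.0 and 6.30 in control libraries. Ccr1 was at 10.4, 4.70 and 4.87 in β-TCP libraries, against 6.95, 6.75 and 7.51 in control libraries. Its FPKM of 47.0, 45.9 and 47.9 in β-TCP libraries stood beside macrophage sums of 4540, 9770 and 9830 FPKM. The osteoclast sums of these libraries were 10000, 9760 and 9800 FPKM. The sum of 10 osteoclast genes was 2390 to 5360 FPKM in hydrogel, 3500 to 5120 FPKM in PCL and 9760 to 10000 FPKM in β-TCP libraries, against 3610 to 5710 FPKM in control libraries, and 3 of 9 tested rose in β-TCP against control at the adjusted threshold (Atp6v0d2, Calcr and Ctsk). In β-TCP against hydrogel 8 of the 9 rose at the adjusted threshold, where 5.17% of all tested genes did. Of the remaining lists, some were lower and some higher. The median log2 fold change of the 9 erythroid markers against control was 2.06 in hydrogel, 2.34 in PCL and 0.30 in β-TCP, with 0 at the adjusted threshold. All 10 cartilage markers were lower by the 2-fold rule in each scaffold group against control, 7 of them at the adjusted threshold in β-TCP. Of all tested genes, 1.48% were lower by this rule in hydrogel, 1.27% in PCL and 1.03% in β-TCP. At the adjusted threshold 0.562% were lower in β-TCP. In β-TCP against hydrogel 6 of 7 B cell and 5 of 11 neutrophil markers were lower by the 2-fold rule, where 5.02% of all tested genes were. In bulk tissue more cells of a type and more RNA per cell cannot be told apart, and the part of these cell types in the changes of the chemokines was not tested.

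**Figure D4:**
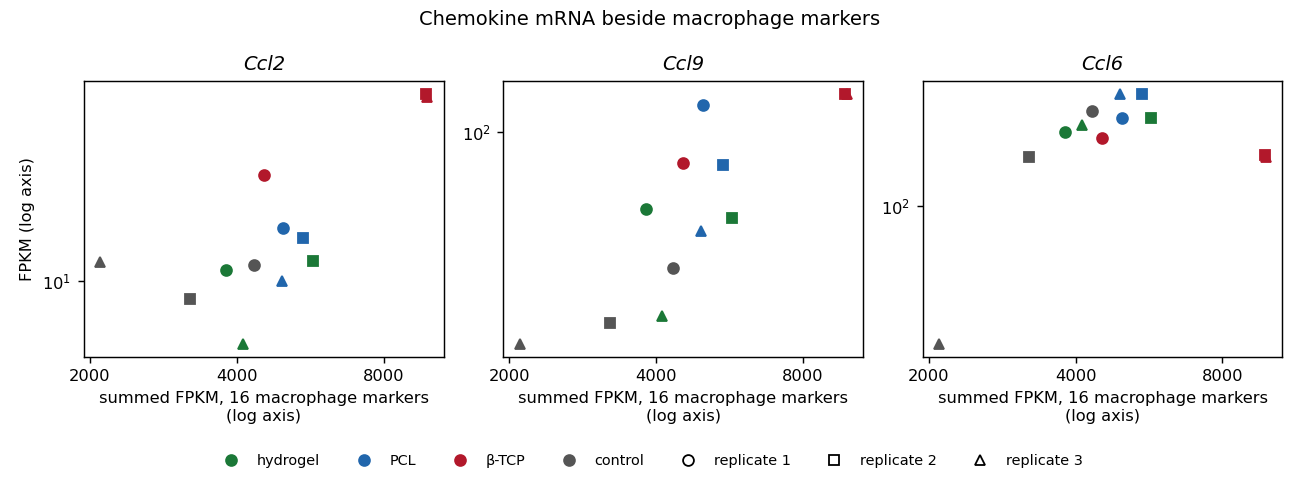
FPKM of Ccl2, Ccl9 and Ccl6 against the summed FPKM of 16 macrophage markers, both on log axes, with a point for each library, colours for groups and shapes for replicate numbers. Lyz2 makes up most of the sum. β-TCP replicates 2 and 3 lie at the upper right for Ccl2 and Ccl9, at 9770 and 9830 FPKM of the markers, and β-TCP replicate 1 lies at 4540 FPKM among the other groups with the highest Ccl2 of those libraries.

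Other genes of the pathway were read from 4 lists. Single libraries were not left out for these genes. Of 12 other CC chemokines 6 were tested, with a median log2 fold change of 0.56 in β-TCP against control, where that of all tested genes was 0.03. At an adjusted p under 0.05, 2 rose in β-TCP against control, where 4.22% of all tested genes did. Ccl20, a ligand of Ccr6, averaged 2.27 ± 1.05 FPKM in the β-TCP group and 0.223 ± 0.152 FPKM in the control group (SD, n = 3 each; log2 fold change 1.38, limma adjusted p = 0.016). Ccl20 met the filter on low values through the β-TCP libraries alone, where its lowest value was 1.41 FPKM. Its highest value elsewhere was 0.55 FPKM, in a PCL library. Its place among the tested genes thus depended on the group where it was high, and its call is no separate support. Ccl22, a ligand of Ccr4, averaged 3.28 ± 0.551 FPKM in the β-TCP group and 0.848 ± 0.695 FPKM in the control group (log2 fold change 1.27, limma adjusted p = 0.0269). Ccl5, beside Ccl9 on chromosome 10 and a ligand of Ccr1, averaged 16.4 ± 0.552 FPKM in the β-TCP group and 27.1 ± 26.2 FPKM in the control group (log2 fold change 0.07, limma adjusted p = 0.976). Ccl24, an eotaxin, passed the 2-fold rule in PCL (log2 fold change 1.43, limma adjusted p = 0.167) and in hydrogel against control (1.12, limma adjusted p = 0.312).

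Of 13 other receptors of the family 8 were tested (median log2 fold change 0.21 in β-TCP against control). Ackr1, a decoy receptor of venules and red cells, passed the rule in PCL against control (log2 fold change 1.75, limma adjusted p = 0.202) and in PCL against β-TCP (1.53, limma adjusted p = 0.184).

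All 32 genes of signalling below the receptors were tested, with a median log2 fold change of 0.33 in β-TCP against control. In β-TCP against control 3 rose by the 2-fold rule, where 2.49% of all tested genes did. At the adjusted threshold 1 rose, where 4.22% of all tested genes did, so the adjusted share of this list was no higher. The gene called was Nfkbia, the inhibitor and target of NF-κB. That was Nfkbia, the inhibitor and target of NF-κB, at 142 ± 5.96 FPKM in the β-TCP group and 61.1 ± 12.4 FPKM in the control group (SD, n = 3 each; log2 fold change 1.22, limma adjusted p = 0.0125). It was also higher in β-TCP against hydrogel (1.02, limma adjusted p = 0.015) and lower in PCL against β-TCP (-1.33, limma adjusted p = 0.0197). Pik3r5, a subunit of the phosphoinositide kinase that G protein βγ activates, had 1.05 (limma adjusted p = 0.0988), and Ncf1, of the phagocyte oxidase, had 1.0 (limma adjusted p = 0.21).

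Of 13 inducers of CC chemokines 6 were tested, with a median log2 fold change of 0.55 in β-TCP against control, and 2 passed the 2-fold rule and 1 the adjusted threshold there. Of all tested genes, 2.49% were higher there by the 2-fold rule and 4.22% at the adjusted threshold. Tlr2, a receptor of microbial lipoproteins, rose in β-TCP against control, at 28.5 ± 11.9 FPKM in the β-TCP group and 9.59 ± 3.99 FPKM in the control group (log2 fold change 1.45, limma adjusted p = 0.0398). Il1b averaged 57.6 ± 36.1 FPKM in the β-TCP group and 10.7 ± 8.13 FPKM in the control group (log2 fold change 2.37, limma adjusted p = 0.0744) and passed the 2-fold rule. Csf1, which sustains macrophages and osteoclast precursors, rose in β-TCP against hydrogel, at 32.0 ± 1.51 FPKM in the β-TCP group and 17.0 ± 5.48 FPKM in the hydrogel group (log2 fold change 0.93, limma adjusted p = 0.0473). Il6 rose there too, with means of 1.04 ± 0.186 FPKM in the β-TCP group and 0.159 ± 0.117 FPKM in the hydrogel group (log2 fold change 0.82, limma adjusted p = 0.0352).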

How the data were processed

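RNA-seq libraries of 12 samples (4 groups of 3) were grouped by their sample titles. Reads were trimmed, aligned and summarised by the authors; the submitters' processing notes list, without versions, Bowtie, Cufflinks, DESeq, HISAT2, HTSeq, StringTie and Trimmomatic, and Rnor_6.0 as the build. The deposited values are FPKM per gene from Cufflinks, normalised by the authors to transcript length and library size. How reads shared between related chemokine genes were assigned is not given in the sources used here. The labels describe HiSeq sequencing of TruSeq stranded libraries after mirVana extraction, the methods NovaSeq sequencing of VAHTS libraries after Trizol. Another 3 value columns match no sample label and were not used.

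FPKM were tested as log2(FPKM + 1), with the pseudocount of 1 understating changes of low genes, where 3 or more libraries had 1 FPKM or more, with limma 3.58.1 in R 4.3.3 (1 mean per group, empirical Bayes with a trend, two-sided, Benjamini-Hochberg over 12633 genes), checked on simulated data. Whole fragments were recovered within 0.01 of a whole number in 18681 of 18684 genes above 0 (99.98%), and at 15036447 to 17358370 fragments per library they limit the precision of low genes. Limma-voom on these fragments was an alternative, as were other pseudocounts, filters, scalings, weights, a replicate block, averaging of β-TCP replicates 2 and 3, only the compared groups, and each library left out. The members, lists and rules were chosen with earlier results of these data known. Named genes are the members, list genes past either threshold (or, where a list had none, its 2 most abundant), and the 3 genes most correlated with each member; Ccl5 and Ccl11 were added as neighbours after their values were seen. Some genes within the rule are left unreported. Of 174 list symbols, 171 matched by symbol. Promoters and gene order are from RefSeq GRCr8. Tables, alignments and figures were made with Python 3.11.15, pandas 2.3.3, scipy 1.17.1, Biopython 1.88 and matplotlib 3.10.9.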

Additional observations from a re-analysis of the deposited data

How the results depend on the processing

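No alternative reversed the direction of a fold change reported for a member in a comparison it was called in. Counts below are of the 8 members. In β-TCP against control, 5 were called at an adjusted p under 0.05, against 0 with β-TCP replicates 2 and 3 averaged, 2 with only the 2 groups compared, 4 with limma-voom and 0 to 5 with a library left out, and the 7 past the 2-fold rule became 4 to 8 with a library left out. In β-TCP against hydrogel, the 4 adjusted calls became 7 with weights per library, 0 with the pair averaged, 3 with limma-voom and 0 to 4 with a library left out, and the 7 past the 2-fold rule became 4 to 7. In PCL against control, 2 passed the 2-fold rule, against 1 without the filter, with quantile normalization, with weights or with only the 2 groups, and 1 to 3 with a library left out, and weights gave 1 adjusted call in place of 0. In PCL against hydrogel, the count by the 2-fold rule moved to 1 with median-of-ratios scaling, quantile normalization, the replicate block, weights or only the 2 groups, and was 0 to 1 with a library left out (1 without hydrogel replicate 1 or 2 or PCL replicate 3). In hydrogel against control it was 0 to 1 with a library left out (1 without control replicate 1 or hydrogel replicate 3). In PCL against β-TCP, the 1 adjusted call became 0 at pseudocounts of 0.1 and 0.5, without the filter, with median-of-ratios scaling, the replicate block, the averaged pair or limma-voom, 8 with weights and 4 with only the 2 groups, and was 0 to 2 with a library left out.

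Ccl7 lost its β-TCP calls with limma-voom (adjusted p = 0.0614 against control and 0.0509 against hydrogel). With the replicate block, Ccl7 lost its call in β-TCP against control (adjusted p = 0.0551) and against hydrogel (adjusted p = 0.0513), and the call of Ccl12 in PCL against β-TCP was lost. Same-numbered samples are tied here by the number in their titles alone. The correlations of same-numbered libraries, taken on deviations from group means, ran from -0.612 to 0.469. With 3 libraries per group these values cannot show whether the numbers mark a pairing or a batch. The causes of these moves were not tested, beyond the smaller number of libraries in some fits. Ccl12 rested on 2 to 7 fragments in control libraries, so its fold change depends on the pseudocount.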
